A study of Mus musculus with 16 samples.

Results

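The genes described here encode the subunits of oxidative phosphorylation, the respiratory chain and ATP synthase of mitochondria. They were chosen by symbol alone, with no measured value in the rule, though earlier results of these data were known. The rule took symbols that start with Nduf and a letter a, b, c, s or v, Sdha to Sdhd, Uqcr, Cox4 to Cox8 and Atp5 in the nuclear genome, and mt-Nd, mt-Co, mt-Atp and mt-Cytb in the mitochondrial genome, without symbols that end as pseudogenes. This rule gave 97 of the 48397 symbols counted in each library, 84 nuclear and 13 mitochondrial. The nuclear members fell into complex I (37), complex II (4), complex III (8), complex IV (18) and complex V (17). The mitochondrial members fell into complex I (7), complex III (1), complex IV (3) and complex V (2). A symbol is not proof of membership: Atp5sl and Atp5s carry the name of the ATP synthase but are not usually counted among its subunits, and Ndufa4, named for complex I, is known as a subunit of complex IV.

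Complexes I and II take electrons from NADH and succinate, complex III passes them to cytochrome c, and complex IV (cytochrome c oxidase) hands them to oxygen. Complexes I, III and IV pump protons as they do so, and complex V, the ATP synthase, makes ATP from the proton gradient. All of these complexes except complex II mix subunits of the nuclear and the mitochondrial genome. The mitochondrial genome is copied from both strands into long precursor RNAs, which are then cut into messenger, ribosomal and transfer RNAs, and neurons draw most of their ATP from this system.

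Primary hippocampal neurons of wild-type CD1 mouse pups were grown with cytosine arabinoside, an inhibitor of dividing cells, and exposed at 10 and 13 days in vitro to 10-fold concentrated medium conditioned by immortalized astrocytes. The astrocytes were homozygous for human APOE ε2, ε3 or ε4 (apoE2, apoE3 and apoE4 lipoproteins) or lacked Apoe (control neurons), so the groups differ in the astrocytic line that made the medium as well as in the apoE isoform. RNA was taken at 17 days, depleted of ribosomal RNA and sequenced, with 4 libraries in each of the 4 groups. By the study's methods the 4 libraries of a group are separate neuronal cultures.

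A library held 14087723 to 34248172 counts in genes (median 22221832). Of all its reads, 38.4 to 73.7% were assigned to no gene. A single nuclear gene, Lars2, took 0.359 to 15.02% of gene counts, more in libraries of replicate 1 (5.95 to 15.02%) than of replicate 2 (0.359 to 4.85%). The 8 neuronal markers summed to 3180 to 7263 CPM (library counts scaled to a common total by edgeR's trimmed mean of M-values, TMM). The cultures also held RNA of other cells: 7 astrocyte markers summed to 1145 to 5487 CPM, 6 markers of mural cells and fibroblasts to 21.5 to 298 CPM, 6 oligodendrocyte lineage markers to 80.9 to 617 CPM, 6 microglial markers to 5.82 to 29.0 CPM, 5 markers of dividing cells to 6.67 to 39.9 CPM and 4 endothelial markers to 0.50 to 1.76 CPM. Libraries with the same replicate number in the 4 groups deviated from their group means together, so replicate number was also fitted as a block, that is, as a further term of the model.

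The mitochondrial members are shown first by sequence, because many of them share sequence with a copy elsewhere in the genome. A stretch of 4662 bases of the mitochondrial genome, chrM:6381-11042 in GRCm38, has a near-identical copy on chromosome 1 (chr1:24611535-24616197, minus strand) that the GENCODE annotation lists as 7 genes. The 6 members that lie wholly inside the stretch had 1932 counts in all 16 libraries together, from 3 (mt-Nd4l) to 1140 (mt-Co3). The 5 members wholly outside it had 13528 (mt-Nd6) to 257927 (mt-Nd1) counts each. mt-Co1, with 492 of its bases inside and 1053 outside, had 2614190 counts, and mt-Nd4, with 876 bases inside and 502 outside, had 70221. Reads that align to more than 1 place made up 9.52 to 13.6% of reads. They were set apart in the counting and given to no gene. Where the reads of the 6 members inside the stretch went was not tested, so their counts are not read as RNA levels here. The annotated copies themselves had 26750 counts together.

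These 30-base windows, the starts of mt-Atp6 and mt-Nd3 and the place where the copy of mt-Co1 begins, show how close the copies are. They are read 5′ to 3′ from the GRCm38 genome, with differing bases in capitals.
mt-Atp6 (chrM:7927-7956), the same in its copy Gm10925: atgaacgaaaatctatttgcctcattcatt
mt-Nd3 (chrM:9459-9488): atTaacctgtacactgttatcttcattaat
Gm28438, copy of mt-Nd3: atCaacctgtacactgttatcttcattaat
mt-Co1 from base 1054 (chrM:6381-6410): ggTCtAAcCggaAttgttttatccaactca
Gm29216, copy of mt-Co1: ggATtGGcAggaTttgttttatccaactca
Counted from base 1 of each mitochondrial gene, with the member's base first, mt-Nd3 and Gm28438 differed over 345 aligned bases only by T3C. mt-Co1 and Gm29216 differed over 492 aligned bases by T1056A, C1057T, A1059G, A1060G, C1062A and A1066T, which all lie within the window shown. No base differed between mt-Atp6 and Gm10925 (678 aligned bases), mt-Co2 and Gm28661 (681), mt-Co3 and Gm28437 (783), mt-Nd4 and Gm28439 (876) or mt-Nd4l and Gm10222 (294). The other copies found were more distant. Gm13339 on chromosome 2 differed from mt-Nd2 at 17 of 510 bases and had 22 counts, and Gm4076 on chromosome 13 differed from mt-Nd5 at 93 of 965 bases and had 39 counts.

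Of all 50-base words in each gene, 97.99 to 100% also occurred in annotated transcripts of other genes for mt-Nd3, mt-Nd4l, mt-Atp6, mt-Co2 and mt-Co3, against 62.2% for mt-Nd4, 51.1% for mt-Co1, 8.2% for mt-Nd2, 7.6% for mt-Nd5 and 0% for mt-Atp8, mt-Nd1, mt-Nd6 and mt-Cytb. For mt-Co1 the share with Gm29216 alone was 28.7%, so other annotated transcripts hold more of its words. The 3 members with the fewest counts, mt-Nd4l (3), mt-Atp8 (16) and mt-Nd3 (84), did not pass the filter on low counts. mt-Atp6 (182 counts), mt-Co2 (507) and mt-Co3 (1140) passed it and were tested, and their values below carry this limit.

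**Figure D1:**
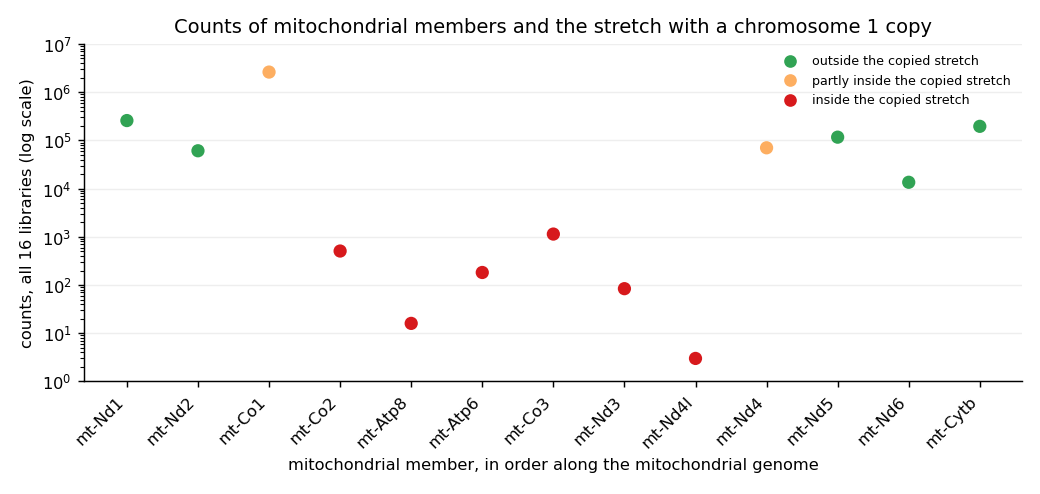
Counts summed over all 16 libraries (y axis, log scale) of the 13 mitochondrial members in order along the mitochondrial genome (x axis), coloured by their place relative to the stretch that has a copy on chromosome 1. The 6 members inside the stretch have 3 to 1140 counts, and the 7 others have 13528 to 2614190.

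Per kilobase of exon, mt-Co1, the catalytic subunit of complex IV, stood at 4573 CPM (mean of 16 libraries). It was followed by mt-Nd1 (740 CPM per kilobase), a subunit of complex I, and mt-Cytb (469), the cytochrome b of complex III. Among the members wholly outside the copied stretch, the complex I subunits mt-Nd5 (179) and mt-Nd2 (165) came next. mt-Nd4, also of complex I, stood at 142 over its full length and at 389 CPM per kilobase over its 502 bases outside the stretch, so its place against these 2 depends on the length used. mt-Nd6, the single member read from the other strand, stood at 73.2. mt-Co1 alone gave 73.8 to 82.8% of the counts of mitochondrial members in a library.

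Together the mitochondrial members made up 0.726 to 1.06% of gene counts and the nuclear members 0.854 to 1.15%. The nuclear members summed to 10120 ± 764 CPM in control neurons, 10487 ± 750 with apoE2, 10575 ± 218 with apoE3 and 9826 ± 812 with apoE4 (SD, n = 4 each). The mitochondrial members summed to 8453 ± 1342 CPM in control neurons, 9313 ± 1545 with apoE2, 9433 ± 1116 with apoE3 and 8991 ± 1293 with apoE4. The ranges of the 4 groups overlapped in both sums. Across the 16 libraries the highest nuclear sum was 1.27 times the lowest and the highest mitochondrial sum 1.58 times the lowest.

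Among the nuclear members, levels per kilobase of exon ran highest in complex IV and complex V. Cox8a (482 CPM per kilobase), Cox6b1 (343) and Cox6a1 (329), small subunits around the core of complex IV, exceeded Atp5b (313) and Atp5a1 (306), the catalytic β and the α subunit of the ATP synthase head. Uqcr11 led complex III (240), Ndufa4 led the symbols of complex I (201), and Sdha, the flavoprotein that oxidizes succinate, led complex II (82.9). As plain levels, with no regard to length, Atp5b (1326 CPM) and Atp5a1 (959 CPM) were the highest nuclear members. At the other end, Atp5l (1.58 CPM per kilobase), Ndufa4l2 (0.385), Sdhc (28.4) and Uqcrq (40.6) were the lowest of their complexes by length, and Cox8c of complex IV had no count in any library.

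**Figure D2:**
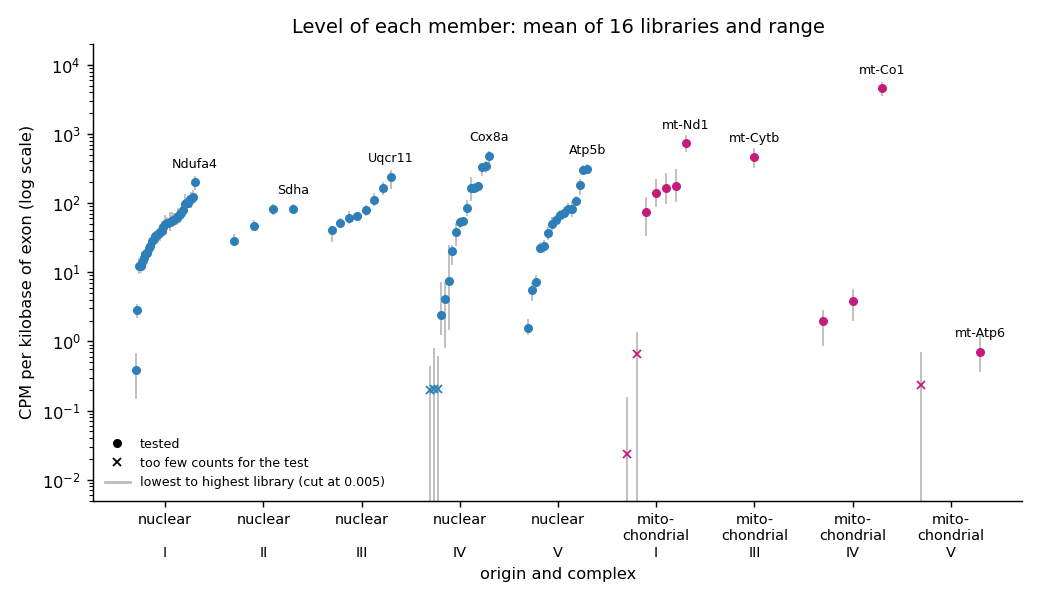
Level of each member as CPM per kilobase of exon (y axis, log scale; point, mean of 16 libraries; line, lowest to highest library) by origin and complex (x axis); crosses mark members with too few counts for the test, and Atp5sl (no annotated length) and Cox8c (no counts) are not drawn. mt-Co1 stands at 4573 and the highest nuclear member, Cox8a, at 482.

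Several subunits of complex IV exist as isoforms that tissues or conditions exchange. The broadly used forms Cox4i1 (256 CPM), Cox6a1 (231), Cox6b1 (243), Cox7a2 (166) and Cox8a (299) made up nearly all counts of their subunits. The heart and muscle forms Cox6a2 (2.79 CPM) and Cox7a1 (1.27 CPM) and the testis form Cox6b2 (8.17 CPM) were low but passed the filter. Cox4i2, the form of lung and low oxygen, had 50 counts in all, Cox7b2 had 45 and Cox8b had 28, and none of these was tested. Cox7a2l, known for its part in joining complexes III and IV, stood at 81.0 CPM. Markers of muscle (4 genes) summed to 0.559 to 1.83 CPM, with 1 of the 4, Actc1, at 0 in all apoE3 libraries. Ndufa4l2, the low-oxygen relative of Ndufa4, stood at 0.422 CPM against 278 CPM for Ndufa4. Of the 3 genes that encode the same c subunit of the ATP synthase ring, Atp5g3 (158 CPM) and Atp5g1 (117 CPM) were far above Atp5g2 (12.1 CPM). Of the 50-base words of Atp5g2, 38.3% also occurred in annotated transcripts of other genes, against 11.1% for Atp5g1 and 0% for Atp5g3. The part of this sharing in the low counts of Atp5g2 was not tested.

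In all, 80 nuclear and 10 mitochondrial members passed the filter, among 17038 genes tested by edgeR's quasi-likelihood test. A gene counts as called where its p-value, adjusted over all 17038 genes by the Benjamini-Hochberg method, is under 0.05. In the fit without the replicate block, no member was called in any of the 6 comparisons between media, by edgeR or by DESeq2. The background was low too: of all genes, edgeR called 0% for apoE2 against control, 0.00587% for apoE3 against control, 0.194% for apoE4 against control, 0.147% for apoE4 against apoE3, 0.252% for apoE4 against apoE2 and 0% for apoE3 against apoE2. Under the study's thresholds, a 2-fold change or more and p below 0.05 before adjustment, with edgeR's p in place of the study's own test, again no member passed, where 0.722%, 1.96%, 1.15%, 1.25%, 1.3% and 0.687% of all genes did in the same order. The 95% confidence intervals of 76 or 77 of the 80 nuclear members lay within a 2-fold change in each comparison. The exceptions were Cox6a2, Cox6b2, Ndufa4l2 and, except for apoE2 against control, Cox7a1, the nuclear members with few counts. Of the 10 mitochondrial members, 6 to 10 had such an interval, depending on the comparison.

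**Figure D3:**
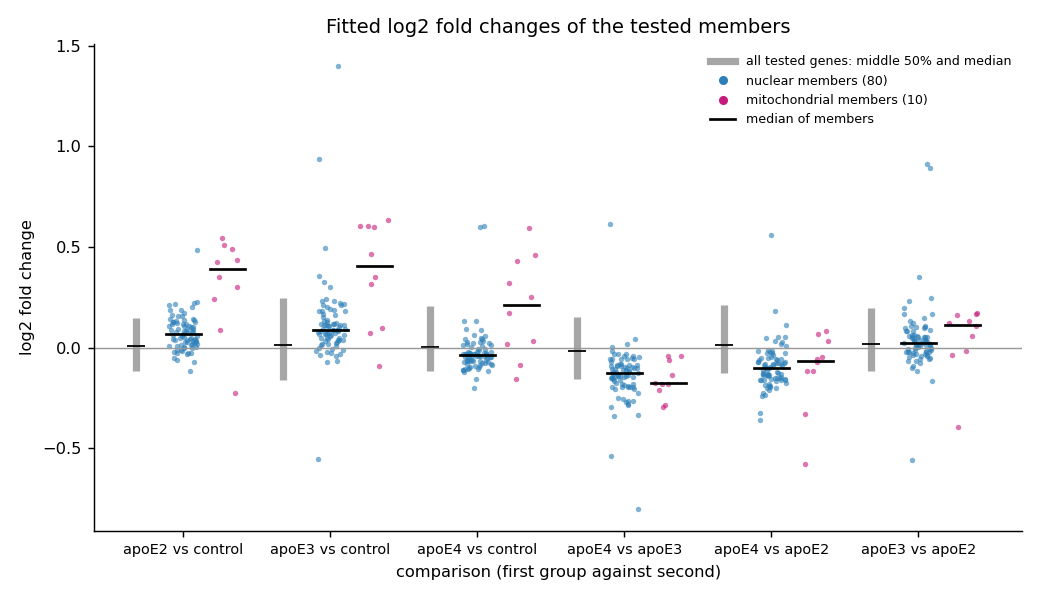
Fitted log2 fold change (y axis) of the 80 nuclear and 10 mitochondrial members tested, for the 6 comparisons (x axis; first group against second); black bars are medians, and grey bars show the middle 50% and the median of all 17038 genes. The mitochondrial median is 0.41 for apoE3 against control and the nuclear median -0.13 for apoE4 against apoE3.

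With the replicate block, 5 of the 10 mitochondrial members tested were called higher in apoE3 than in control neurons by edgeR, 4 of complex I and mt-Cytb of complex III, where 7.95% of all genes were. None was called in the fit without the block. These members share libraries and scaling, so they are not independent observations. The question of this comparison is what apoE3 lipoproteins, the common isoform, change in maturing neurons. mt-Nd5, which sits at the far end of the proton-pumping arm of complex I, was 281, 195, 245 and 234 CPM in control replicates 1 to 4 and 289, 346, 425 and 421 CPM in apoE3 replicates 1 to 4. mt-Nd4, its neighbour in that arm, was 186, 125, 140 and 144 CPM in control and 190, 234, 236 and 243 CPM in apoE3 neurons. For both genes every apoE3 library lay above every control library. mt-Nd2, the third large subunit of the arm, was 161, 104, 140 and 130 CPM in control and 194, 179, 220 and 220 CPM in apoE3 neurons. mt-Cytb was 500, 381, 463 and 441 CPM in control and 558, 597, 611 and 700 CPM in apoE3 neurons. These groups did not overlap either.

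mt-Nd1, which lies at the junction of the 2 arms of complex I, was 676, 566, 697 and 535 CPM in control and 684, 744, 864 and 859 CPM in apoE3 neurons, where apoE3 replicate 1 fell below control replicate 3. mt-Nd6 was 32.2, 17.7, 37.8 and 26.4 CPM in control and 36.8, 41.0, 52.6 and 42.8 CPM in apoE3 neurons, with the same overlap. In all 6 of these genes the apoE3 library was above the control library of the same number in 4 of 4 pairs. mt-Co1 was different: it was 7189, 5718, 8328 and 6100 CPM in control and 6149, 6903, 8299 and 7370 CPM in apoE3 neurons, higher in 2 of 4 pairs. The share of mt-Co1 in the mitochondrial member counts was 79.6, 80.4, 82.8 and 80.1% in control and 75.9, 76.3, 77.5 and 74.7% in apoE3 neurons. Without mt-Co1, the mitochondrial members summed to 1393 to 1841 CPM in control (mean 1620 ± 203, SD, n = 4) and 1956 to 2491 CPM in apoE3 neurons (2253 ± 246).

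As log2 fold changes in the fit without the block, mt-Nd5 stood at 0.63 (SE 0.27), mt-Nd2 at 0.60 (SE 0.23), mt-Nd4 at 0.60 (SE 0.22), mt-Nd6 at 0.60 (SE 0.34), mt-Cytb at 0.47 (SE 0.14), mt-Nd1 at 0.35 (SE 0.15) and mt-Co1 at 0.07 (SE 0.21). Their adjusted p-values from edgeR ran from 0.593 (mt-Cytb) to 0.944 (mt-Co1). At an unadjusted p under 0.05, 5 of the 10 mitochondrial members were higher (mt-Cytb, mt-Nd4, mt-Nd2, mt-Nd5 and mt-Nd1), against 3.52% of all genes higher. In 4 of the 10 (mt-Cytb, mt-Nd2, mt-Nd4 and mt-Nd5) the groups did not overlap in that direction, against 1.4% of all genes. The 10 share libraries and scaling, so these counts are not independent observations. mt-Atp6, mt-Co2 and mt-Co3 are among the 10, and their counts carry the limit given above. The median over the 10 was 0.41, beside 0.09 for the nuclear members and 0.02 for all genes tested.

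With replicate number as a block, the common dispersion of all genes fell from 0.132 to 0.0178 and 7.95% of all genes were called higher in apoE3 than in control neurons. Under this fit 5 of the 10 mitochondrial members were called higher by edgeR: mt-Nd2 (log2 fold change 0.62, SE 0.15, adjusted p = 0.0161), mt-Cytb (0.47, SE 0.13, adjusted p = 0.0282), mt-Nd4 (0.61, SE 0.18, adjusted p = 0.0369), mt-Nd1 (0.36, SE 0.11, adjusted p = 0.0438) and mt-Nd5 (0.65, SE 0.20, adjusted p = 0.0485). With DESeq2 size factors in the same fit mt-Nd1 (adjusted p = 0.0566) and mt-Nd5 (adjusted p = 0.0558) were no longer called. mt-Nd6 (0.65, SE 0.21) had an adjusted p of 0.0573, and mt-Co1 (0.08, SE 0.13) of 0.753. No mitochondrial call held with each replicate number left out in turn. With the block and number 2 left out none was called, although mt-Nd5 stood at 0.56, mt-Nd2 at 0.54 and mt-Nd4 at 0.49. mt-Nd2 alone was called without number 3, mt-Nd2 and mt-Nd4 without number 1, and mt-Nd2 and mt-Nd6 without number 4. The ribosomal RNAs of the same genome were not called: mt-Rnr1 stood at 0.54 (adjusted p = 0.117) and mt-Rnr2 at 0.33 (adjusted p = 0.288) with the block.

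Reads that did not align made up 29.3, 22.7, 21.96 and 28.5% in control and 32.8, 23.9, 23.2 and 34.9% in apoE3 replicates 1 to 4, higher in each of the 4 pairs. Reads with more than 1 place made up 10.8, 9.55, 10.4 and 12.6% in control and 12.99, 10.5, 11.8 and 11.9% in apoE3 neurons, higher in 3 of 4 pairs. Their part in the result was not tested. The astrocyte markers (7 genes, none at 0) were compared in the same pairs. They summed to 1791, 1279, 2200 and 2675 CPM in control replicates 1 to 4 and to 3745, 1523, 2926 and 5487 CPM in apoE3 replicates 1 to 4, higher in each of the 4 pairs. The astrocytes' part in the mitochondrial result was not tested. The 5 markers of dividing cells, none at 0, summed to 6.67 to 17.1 CPM in control and 25.7 to 39.9 CPM in apoE3 neurons, and their part was not tested either. In RNA from whole cultures, a change in the number of cells of a type cannot be told apart from a change in RNA per cell.

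**Figure D4:**
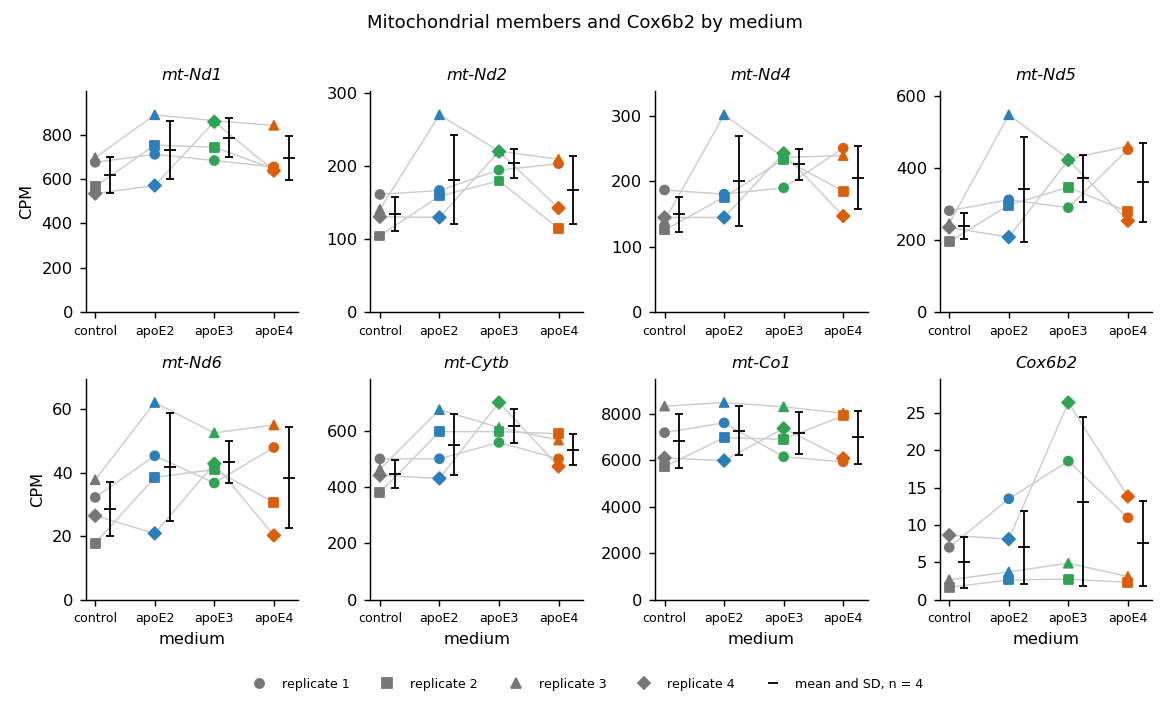
CPM (y axis) of 7 mitochondrial members and of Cox6b2 in the 4 media (x axis); points are libraries, shapes and grey lines mark the replicate number, and black bars give mean and SD (n = 4). For mt-Nd2, mt-Nd4, mt-Nd5 and mt-Cytb every apoE3 library lies above every control library.

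Of the nuclear members, Cox6b2, the testis form of a small subunit of complex IV, had the largest fitted difference between apoE3 and control neurons, at a low level. It was 6.99, 1.65, 2.65 and 8.63 CPM in control, 13.5, 2.63, 3.71 and 8.10 CPM in apoE2, 18.6, 2.74, 4.87 and 26.4 CPM in apoE3 and 10.97, 2.31, 3.10 and 13.8 CPM in apoE4 replicates 1 to 4. Replicates 1 and 4 were high and replicates 2 and 3 low in every medium, so the groups overlapped, yet apoE3 was above control in 4 of 4 pairs. Without the block its log2 fold change was 1.40 (SE 0.80, edgeR adjusted p = 0.803), and with it 1.22 (SE 0.21, adjusted p = 0.00251). Cox6b2 stayed called with the block when any replicate number was left out. The markers of mural cells and fibroblasts (6 genes, none at 0) were also high in replicates 1 and 4 and low in replicates 2 and 3, with 87.5 to 159 CPM in replicate 1, 23.4 to 25.8 in replicate 2, 21.5 to 43.9 in replicate 3 and 105 to 298 in replicate 4. The oligodendrocyte lineage markers (6 genes, none at 0) had the same pattern, with 282 to 617, 80.9 to 103, 133 to 194 and 236 to 595 CPM in replicates 1 to 4. The mural cell and fibroblast markers summed to 88, 23, 24 and 158 CPM in control and 151, 26, 25 and 298 CPM in apoE3 neurons. The part of either marker list in the result was not tested.

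Ndufc2, a subunit of the membrane arm of complex I, was 65.8, 71.6, 94.4 and 78.4 CPM in control and 95.6, 87.8, 101 and 105 CPM in apoE3 neurons. Control replicate 3 lay within the apoE3 range, and apoE3 was higher in 4 of 4 pairs. Its log2 fold change was 0.33 without the block (SE 0.11, edgeR adjusted p = 0.715) and 0.33 with it (SE 0.10, adjusted p = 0.0464), and it was not called when any replicate number was left out. In the fit on all libraries these 2 genes were the only nuclear members called in any comparison with the block by edgeR, while Ndufa2 was also called against control in apoE2 and apoE3 neurons when number 4 was left out, and 2 of 80 stands beside the 7.95% of all genes called higher in this one. Of the other complex I subunits, Ndufa2 was at 0.36 (adjusted p = 0.0709 with the block) and Ndufa11 at 0.24 (adjusted p = 0.127 with the block). Ndufa2 shares 11.5% of its exon bases with Tmco6 on the other strand, and whether counting used strand is not given in the sources used here.

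The rest of the nuclear members had small fold changes. In apoE3 against control neurons 68 of the 80 had a fold change above 0, against 52.4% of all genes. By complex this was 32 of 37 in complex I (median log2 fold change 0.09), 4 of 4 in complex II (0.09), 7 of 8 in complex III (0.08), 13 of 14 in complex IV (0.10) and 12 of 17 in complex V (0.05). An unadjusted p under 0.05 was seen for 5 of 80, all higher (Ndufc2, Ndufa2, Ndufa11, Ndufb6 and Cox7a1), beside the 3.52% of all genes that were higher. Cox7a1 stood at 0.94, and at 0.27 without apoE3 replicate 4. The groups did not overlap for 2 of 80 (Ndufa3 and Ndufs8), close to the 1.4% of all genes given above. Atp5b was 1228, 1258, 1468 and 1350 CPM in control and 1412, 1224, 1333 and 1393 CPM in apoE3 neurons (log2 fold change 0.02, 95% interval -0.23 to 0.26). Ndufs1 and Ndufv1, which carry electrons from NADH into complex I, lay at 0.04 and 0.03.

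In apoE4 against apoE3 neurons, the comparison of the risk isoform with the common isoform, the nuclear members leaned lower together and by little. The fold change was below 0 for 76 of 80 members, against 53.2% of all genes. By complex it was 35 of 37 in complex I (median log2 fold change -0.12), 4 of 4 in complex II (-0.10), 8 of 8 in complex III (-0.14), 13 of 14 in complex IV (-0.16) and 16 of 17 in complex V (-0.12). The median was -0.13 over the 80 nuclear members, -0.18 over the 10 mitochondrial members, all of them below 0, and -0.02 over all genes. Without apoE4 replicate 4 the nuclear median was -0.08 and the mitochondrial median -0.01. Members share libraries and scaling, so these counts are not independent observations. The share of reads that fell in no annotated gene was 19.9, 13.1, 15.05 and 14.9% in apoE3 and 23.5, 12.1, 19.7 and 22.6% in apoE4 replicates 1 to 4, higher with apoE4 in 3 of 4 pairs. The nuclear members took 1.01, 1.05, 1.05 and 1.09% of gene counts in apoE3 and 0.854, 1.15, 0.946 and 0.953% in apoE4 neurons, with apoE4 replicate 2 again apart from the other 3. The part of these reads in the result was not tested.

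Ndufs8, an iron-sulfur subunit of complex I, was 73.2, 71.7, 70.1 and 74.3 CPM in apoE3 and 54.8, 68.8, 62.3 and 57.6 CPM in apoE4 replicates 1 to 4, with no overlap. Its log2 fold change of -0.25 (SE 0.09) had the smallest p of the nuclear members (unadjusted p = 0.0197, edgeR adjusted p = 0.945, and 0.208 with the block). Ndufc2 was 95.6, 87.8, 101 and 105 CPM in apoE3 and 78.5, 77.2, 81.7 and 82.3 CPM in apoE4 neurons, again with no overlap (-0.28, SE 0.11, adjusted p = 0.971, and 0.184 with the block). Ndufa1 was 56.5, 57.8, 63.1 and 53.0 CPM in apoE3 and 44.1, 49.2, 53.6 and 44.0 CPM in apoE4 neurons, where apoE4 replicate 3 lay above apoE3 replicate 4 (-0.27, SE 0.11, adjusted p = 0.971, and 0.11 with the block). In all 3 genes apoE4 was lower in 4 of 4 pairs.

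At an unadjusted p under 0.05, 7 of the 80 nuclear members were lower in apoE4 than in apoE3 neurons (Ndufs8, Ndufc2, Ndufa1, Ndufb6, Ndufa3, Ndufb4 and Atp5k), where 2.12% of all genes were. Of these Ndufb6 shares 39.0% of its exon bases with Smim27 on the other strand. The groups did not overlap for 5 of 80 (Atp5g2, Atp5k, Ndufb6, Ndufc2 and Ndufs8), against 1.11% of all genes lower. With the block edgeR called no member and 1.77% of all genes. DESeq2 with the block called Cox6b2 (-0.68, adjusted p = 0.0447) and Ndufa1 (-0.26, adjusted p = 0.0377) lower, where it called 4.11% of all genes in either direction. In control neurons Ndufs8 was 59.3, 61.9, 66.2 and 67.4 CPM, which overlapped the apoE4 libraries.

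In apoE4 against control neurons 59 of 80 nuclear members were below 0, where 49.6% of all genes were, with a median of -0.04 that ran from -0.08 without apoE4 replicate 2 to just below 0 without control replicate 3. The 3 smallest p-values belonged to Uqcrc2, a core protein of complex III (-0.11, SE 0.07), Cox7a1 (0.60, SE 0.43) and Uqcrfs1, the Rieske iron-sulfur protein of complex III (-0.10, SE 0.08), each with an adjusted p of 1.00 by edgeR. Uqcrfs1 was 102, 112, 108 and 120 CPM in control and 92.6, 110, 106 and 103 CPM in apoE4 neurons, lower in 4 of 4 pairs with overlapping groups. Of the 10 mitochondrial members 8 were above 0, with a median of 0.21, which was 0.07 without apoE4 replicate 3. mt-Nd5 was 450, 278, 459 and 253 CPM in apoE4 neurons, overlapping the control libraries, and at 0.59 (SE 0.27) it was the 1 member with an unadjusted p under 0.05 by edgeR's quasi-likelihood test, against 2.47% of all genes higher. No member had groups that did not overlap (1.91% of all genes had), and with the block no member was called by edgeR (3.3% of all genes were).

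In apoE2 against control neurons 66 of 80 nuclear members were above 0, where 52.3% of all genes were, with a median of 0.07 that was 0.01 without control replicate 1. So were 9 of 10 mitochondrial members, with a median of 0.39. No member had an unadjusted p under 0.05 (2.79% of all genes had) or groups without overlap (2.19% had), and none was called by edgeR with the block on all libraries (1.73% were). The 3 smallest nuclear p-values were those of Ndufc2 (0.22, SE 0.11), Ndufs5 (0.21, SE 0.14) and Ndufa3 (0.17, SE 0.11). Ndufs5 was 13.4, 13.99, 16.2 and 17.6 CPM in control and 18.6, 16.7, 17.8 and 17.9 CPM in apoE2 neurons, higher in 4 of 4 pairs with overlapping groups. The mitochondrial members were high in apoE2 replicate 3: mt-Nd5 was 311, 296, 547 and 207 CPM and mt-Nd2 166, 159, 270 and 129 CPM in apoE2 replicates 1 to 4. Without apoE2 replicate 3 the mitochondrial median was 0.17.

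The 3 comparisons with control neurons use the same control libraries, so their values are given side by side only. For apoE2, apoE3 and apoE4 in turn, the log2 fold change of mt-Nd5 was 0.51, 0.63 and 0.59. That of mt-Nd4 was 0.43, 0.60 and 0.46, and that of mt-Nd2 0.44, 0.60 and 0.32. That of mt-Cytb was 0.30, 0.47 and 0.25, and that of mt-Nd1 0.24, 0.35 and 0.17. That of mt-Co1 was 0.09, 0.07 and 0.03.

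In apoE4 against apoE2 neurons 70 of 80 nuclear members were below 0, where 48% of all genes were, with a median of -0.10 that ran from -0.16 without apoE4 replicate 2 to -0.06 without apoE2 replicate 1. Sdhd, a membrane anchor of complex II, was 116, 103, 105 and 99.4 CPM in apoE2 and 85.4, 101, 98.4 and 86.3 CPM in apoE4 neurons. It was lower in 4 of 4 pairs with overlapping groups (-0.19, SE 0.09), the 1 member with an unadjusted p under 0.05 (edgeR adjusted p = 0.918), against 2.25% of all genes lower. Next came Ndufa4 (-0.23, SE 0.11) and Atp5sl (-0.36, SE 0.18, adjusted p = 0.0694 with the block), which is known for a part in the assembly of complex I. No member had groups without overlap (3.4% of all genes had), and edgeR with the block called none (4.44% of all genes). DESeq2 with the block called Atp5sl (-0.36, adjusted p = 0.0255), where it called 7.29% of all genes.

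In apoE3 against apoE2 neurons 49 of 80 nuclear members were above 0, where 53.2% of all genes were, with a median of 0.02. Without apoE2 replicate 4 the median was -0.02, and the mitochondrial median turned from 0.11 to -0.04. No member had an unadjusted p under 0.05 (2.28% of all genes had), and none was called by edgeR with the block (1.31% were). DESeq2 with the block called Cox6b2 higher (0.69, adjusted p = 0.0396), where it called 4.31% of all genes in either direction. Only Atp5g2 had groups without overlap, 12.1, 10.2, 12.2 and 11.9 CPM in apoE2 against 14.6, 13.1, 13.1 and 14.3 CPM in apoE3 neurons (0.24, SE 0.15), where 0.698% of all genes were higher in this way. Cox7a1 (0.89, SE 0.43) and Ndufa11 (0.20, SE 0.10) had the other 2 of the 3 smallest nuclear p-values. The value of Cox7a1 rests on apoE3 replicate 4, without which it was 0.23.

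Other genes of the pathway, from lists taken apart from the members, were called in none of the 6 comparisons without the block. With the block, none of the 43 assembly factors and none of the 5 mitochondrial ribosomal and transfer RNAs tested was called in any comparison. Of the 14 electron carriers and coenzyme Q genes, Etfa, a carrier of electrons from fatty acid oxidation, was called higher in apoE3 than in control neurons (0.45, SE 0.10, edgeR adjusted p = 0.00871), where 7.95% of all genes were. Cycs, the gene of cytochrome c, lay at 0.02 and Cyc1, cytochrome c1 of complex III, at 0.04. Of the 27 genes of mitochondrial biogenesis, Gabpb2, a subunit of the GABP transcription factor, was called higher in apoE4 neurons against control (0.64, SE 0.14, adjusted p = 0.0201), apoE3 (0.89, SE 0.14, adjusted p = 0.00429) and apoE2 neurons (0.73, SE 0.14, adjusted p = 0.00789), where 3.3%, 1.77% and 4.44% of all genes were called in either direction. Tfam, which packages and transcribes mitochondrial DNA, lay at -0.17 (adjusted p = 0.12) in apoE3 against control neurons, and Ppargc1a, the coactivator PGC-1α, at -0.03.

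Of the 23 genes of the TCA cycle and pyruvate dehydrogenase, Dlat, a catalytic subunit of the pyruvate dehydrogenase complex, was highest with apoE2 (mean 223 CPM) against 151 in control, 171 with apoE3 and 135 with apoE4. With the block it was called higher in apoE2 than control (0.56, SE 0.08, edgeR adjusted p = 0.00423) and lower in apoE4 than apoE2 (-0.73, adjusted p = 0.000184), in apoE4 than apoE3 (-0.34, adjusted p = 0.0499) and in apoE3 than apoE2 (-0.39, adjusted p = 0.0305). Pdk4, an inhibitory kinase of the same complex, was called higher in apoE3 than control (0.75, SE 0.22, adjusted p = 0.0399). These are 1 of 23 genes in each comparison, where the block called 1.73% of all genes in apoE2 against control, 4.44% in apoE4 against apoE2, 1.77% in apoE4 against apoE3 and 1.31% in apoE3 against apoE2 in either direction, and 7.95% higher in apoE3 against control.

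Of the 19 glycolysis genes, 1 was called higher and 4 lower in apoE3 than in control neurons with the block, where 7.95% of all genes were called higher and 3.73% lower. The higher one was Aldoc, the brain aldolase, which astrocytes are known to express (0.77, SE 0.16, edgeR adjusted p = 0.00805). The lower ones were Pfkp (-0.30, adjusted p = 0.00801), Eno2, the neuronal enolase (-0.37, adjusted p = 0.0195), Slc2a3, the neuronal glucose transporter (-0.41, adjusted p = 0.0309), and Hk1 (-0.24, adjusted p = 0.0439). Pgam1 was called lower in apoE4 than apoE2 (-0.42, adjusted p = 0.0254). The neuronal markers (8 genes, none at 0) summed to 4660, 6121, 7100 and 4214 CPM in control and 4138, 6460, 6698 and 3180 CPM in apoE3 neurons, lower in 3 of 4 pairs. The part of the neurons and astrocytes in these calls was not tested. Of 9 carriers and uncoupling proteins, Ucp2 was called higher (0.69, adjusted p = 0.047) and Slc25a27 lower (-0.34, adjusted p = 0.0369) in the same comparison. Of 77 proteins of the mitochondrial ribosome, Mrps6 (0.69, adjusted p = 0.0187) and Mrps24 (0.28, adjusted p = 0.0499) were called higher there.

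Of the 6 nuclear copies tested, Gm28439, whose sequence is the same as that of mt-Nd4 over their 876 aligned bases, was called higher in apoE3 than in control neurons with the block (1.15, SE 0.32, edgeR adjusted p = 0.0299), where 7.95% of all genes were. Its mean was 0.572 CPM in control and 1.26 CPM in apoE3 neurons, while mt-Nd4 itself was 125 to 186 CPM in control and 190 to 243 CPM in apoE3 libraries. Reads of the 2 genes cannot be told apart over these bases. In apoE4 against apoE3 neurons Gm28437, the copy of mt-Co3, was called lower with the block, where 0.693% of all genes were.

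Replicate number was also tested as a source of spread between libraries. An F test of replicate number, in the model with medium, called 17 of the 80 nuclear members (21.2%) and 4 of the 10 mitochondrial members, where it called 63.8% of all genes. Without replicate 3 it called 8 nuclear and 0 mitochondrial members and 51.2% of all genes. The median range of the 4 numbers' means was 0.17 on the log2 scale for nuclear members, 0.48 for mitochondrial members and 0.61 for all genes. The median SD over the 16 libraries was 0.15, 0.37 and 0.37. Replicate number accounted for a median of 28.8% of the variance of log2 CPM in nuclear members, 38.1% in mitochondrial members and 56.1% in all genes, and medium for 20.1%, 29.9% and 14.4%. No test of these differences between lists was made.

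The 5 members with the smallest p between replicate numbers were Cox6b2, Cox7b, Cox6a2, Cox8a and Atp5sl, 4 of them in complex IV. Cox7b, a small subunit of complex IV, was 138, 180, 170 and 137 CPM in replicate 1 of control, apoE2, apoE3 and apoE4 and 279, 270, 282 and 257 CPM in replicate 3, with no overlap between these numbers. Cox6a2, the heart and muscle form, was 0.66, 1.19, 0.571 and 0.885 CPM in replicate 3 and 2.16 to 4.70 CPM in the other libraries. Cox8a was lowest in replicate 4, at 266, 235, 269 and 237 CPM, and 321 to 340 CPM in replicate 3. Atp5sl was 13.5 to 19.4 CPM in replicate 3. Of the 10 mitochondrial members 8 were highest in replicate 3, and the mitochondrial sum was 10602 CPM there and 8181 CPM in replicate 4. mt-Nd6, mt-Nd2, mt-Nd1 and mt-Nd5 were called.

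**Figure D5:**
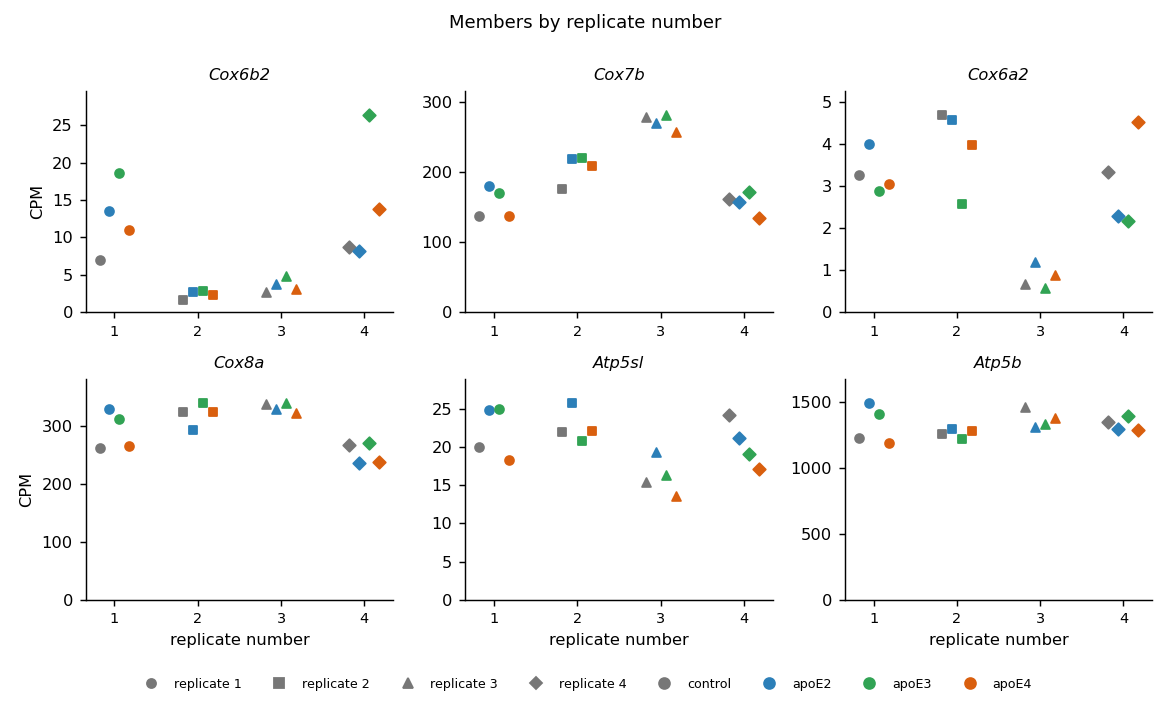
CPM (y axis) of the 5 members with the smallest p between replicate numbers, and of Atp5b for comparison, by replicate number (x axis); points are libraries, coloured by medium. Cox6a2 lies between 0.571 and 1.19 CPM in replicate 3 and Cox7b between 257 and 282 CPM.

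Promoters of the nuclear members were searched for letters bound by factors known to drive respiratory genes. RefSeq promoter sequence (GRCm38.p6) was matched by symbol for 66 of the 84 nuclear members and for 27025 genes in all, and the 250 bases before the start were read on both strands. The core letters of nuclear respiratory factor 1, CGCATGCG, which read the same on both strands, occurred in 6 of 66 members (9.09%) and in 1.58% of all promoters. The letters of the ETS factor GABP, CCGGAAG or CTTCCGG, occurred in 11 members (16.7%) and in 7.05% of all. Those of YY1, AAGATGGC or GCCATCTT, occurred in 0 of 66 members and in 1.59% of all. With the 50 bases after the start added, YY1 letters occurred in 8 members (12.1%) and in 2.88% of all. CCAAT or ATTGG occurred in 43.9% of members and 34.5% of all, TATAAA or TTTATA in 9.09% and 13%, and GGGCGG or CCGCCC in 34.8% and 32.9%. A match is a description of the letters and not a bound site.

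The 6 members with NRF-1 letters in the 250 bases before the start are shown with 30 bases of promoter, because NRF-1 is known from promoters of respiratory genes. Capitals mark the letters searched.
Atp5g2 (chr15:102671070-102671099, minus strand): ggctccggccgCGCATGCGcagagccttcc
Atp5k (chr5:108434430-108434459, minus strand): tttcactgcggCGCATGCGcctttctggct
Atp5l (chr9:44920963-44920992, minus strand): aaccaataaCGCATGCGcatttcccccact
Cox6a1 (chr5:115349101-115349130, minus strand): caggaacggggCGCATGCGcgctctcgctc
Ndufa11 (chr17:56717692-56717721, plus strand): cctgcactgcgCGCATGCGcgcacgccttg
Ndufa8 (chr2:36049339-36049368, minus strand): gcgcttgcgcgtcgctggagaCGCATGCGc
Of the 11 members with ETS letters in these 250 bases, 3 are shown as examples, from complexes IV, II and III.
Cox6b1 (chr7:30626124-30626153, minus strand): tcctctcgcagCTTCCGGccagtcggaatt
Sdhd (chr9:50603877-50603906, minus strand): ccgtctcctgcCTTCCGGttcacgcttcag
Uqcr11 (chr10:80406869-80406898, minus strand): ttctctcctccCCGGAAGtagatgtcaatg
Cox6a1 and Atp5l held both kinds of letters. Of the members with NRF-1 letters, in apoE4 against apoE3 neurons Atp5g2 stood at -0.27 and Atp5k at -0.28 without overlap, and Atp5l stood at -0.20, Ndufa11 at -0.19, Cox6a1 at -0.16 and Ndufa8 at -0.09 with overlapping groups. None was called, and 76 of all 80 nuclear members were below 0 in this comparison, where 1.11% of all genes lay lower without overlap.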

How the data were processed

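Per the labels and the study's methods, RNA was isolated with RNeasy, depleted with Ribo-Zero Gold, made into Truseq libraries and sequenced on a NovaSeq. The authors aligned reads to mm10 with STAR and deposited HTSeq counts per gene symbol, 1 file per library. The annotation and strand setting are not given in the sources used here. Reads with several alignments were counted to no gene. Rows that name no gene stayed out of library sizes and held 38.4 to 73.7% of reads. Members and lists were chosen with earlier results of these data known.

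Genes passing filterByExpr (minimum count 10, total 15) were fitted in edgeR 4.0.16 under R 4.3.3 (TMM, glmQLFit, glmQLFTest) over all 16 libraries with medium as the term, without a block. Adjusted p-values are Benjamini-Hochberg values over 17038 genes. Deviations from group means correlated at 0.362 to 0.831 between libraries of the same replicate number in the labels and at -0.736 to 0.569 between different numbers, so the numbers were taken to pair the libraries, and blocked values are printed where they change a call. Alternatives were DESeq2 1.42.0, other scalings and filters, and each replicate left out. The scripts were checked on simulated counts. Lengths, coordinates and copies come from GENCODE M21 and GRCm38 (96 of 97 symbols matched), promoters from RefSeq (GRCm38.p6).

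Named are the 13 mitochondrial members, the 3 nuclear members with the smallest p in each comparison, members called with the block, isoforms, the highest and lowest of each complex by length, the 5 with the smallest p between replicate numbers and those that failed the filter. Other names with values were chosen after their values were seen.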

Additional observations from a re-analysis of the deposited data

Results flagged for a closer look

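In groups of 4 libraries, a library was set apart where its gap to the nearest of the others exceeded Dixon's 95% critical share of the group's range. This held for 14 of 184 groups, and chance alone gives about 1 in 20. A group was a medium for a named and tested member, a summed level or the share of mt-Co1. The named members were partly picked for small p-values, and the other members were not screened. No explanation was tested.

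In apoE2 replicate 1, Atp5b was 1499 CPM (others 1296 to 1313), Ndufs8 77.4 CPM (59.7 to 62.4) and Sdhc 112 CPM (89.2 to 91.3). In apoE2 replicate 2, Atp5g2 was 10.2 CPM, below the other 3, and Ndufa4l2 was 0.687 CPM, above them. In apoE3 replicate 1, Cox6b1 was 257 CPM, where the other 3 lay at 253 to 254, and mt-Nd4 was 190 CPM, below the other 3 at 234 to 243. In apoE3 replicate 2, mt-Atp6 was 0.737 CPM, above the other 3. In apoE3 replicate 4, Cox7a1 was 3.802 CPM, above the other 3 at 0.913 to 1.29, and Ndufa3 was 82.9 CPM, below the other 3 at 91.2 to 91.7. In apoE4 replicate 3, mt-Nd1 was 843 CPM, where the other 3 lay at 638 to 655. In apoE4 replicate 4, Atp5g2 was 9.05 CPM, below the other 3 at 11.99 to 12.4. In control replicate 3, Sdha was 384 CPM, above the other 3 at 325 to 331, and in control replicate 4, Ndufa11 was 62.3 CPM, above the other 3 at 53.6 to 54.7.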

How the results depend on the processing

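Without the replicate block, no member was called in any of the 6 comparisons under any scaling or filter tried, with DESeq2 or with any library left out. With a library left out, the medians for apoE3 against control stayed above 0 (nuclear 0.04 to 0.13, mitochondrial 0.35 to 0.48) and those for apoE4 against apoE3 below 0 (nuclear -0.17 to -0.08, mitochondrial -0.28 to -0.01). The sign turned for apoE3 against apoE2 without apoE2 replicate 4 (nuclear -0.02, mitochondrial -0.04) and for the mitochondrial median of apoE4 against apoE2 without apoE2 replicate 3 (0.08) and, to just above 0, without apoE4 replicate 4. With no filter on low counts, the mitochondrial median for apoE4 against control was 0.02 in place of 0.21. With the block, the only comparison with calls by edgeR on all libraries was apoE3 against control, with 2 nuclear and 5 mitochondrial members, and no other call changed. The following settings were chosen after seeing the data. DESeq2 with the block called 2 and 6 there, 2 nuclear members in apoE4 against apoE3 (Cox6b2 and Ndufa1), 1 in apoE4 against apoE2 (Atp5sl) and 1 in apoE3 against apoE2 (Cox6b2). Of all genes it called 15.9%, 4.11%, 7.29% and 4.31% in these comparisons, in the same order and in either direction. Library sizes without mt- genes and Lars2 gave 2 and 5 with the block, and DESeq2 size factors 2 and 3. With the block and a replicate number left out, the nuclear and mitochondrial calls in apoE3 against control were 1 and 2 (number 1), 1 and 0 (number 2), 1 and 1 (number 3) and 2 and 2 (number 4). Without number 4, apoE2 against control gained 2 and 1. The shares of all genes called in these fits are not given here, so these counts are not read as results about the members. Members that differed between replicate numbers ranged from 8 to 20 (nuclear) and 0 to 4 (mitochondrial) with a number left out, lowest without number 3. Library sizes without mt- genes and Lars2 raised the nuclear sums to 11546 (control), 11929 (apoE2), 12072 (apoE3) and 11187 CPM (apoE4) and the apoE3 mitochondrial sum to 10770 CPM. Leaving out a number leaves 12 libraries; other causes were not tested. Few counts limit what can be read of mt-Co2, mt-Atp6, Ndufa4l2 and Cox7a1.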
